A study of Mus musculus with 18 samples.

Results

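The genes for replication-dependent histones and the H1 linker histones were followed in sorted OT2 and OT1 thymocytes of 6 bone marrow chimeras, across the antigen receptor, the host thymus and the CD4 and CD8A antibody gates. Members were taken by name, as gene symbols starting with H1f, H2ac, H2bc, H3c or H4c and a digit. This gave 63 genes of 55494 in the files. A minimum of 10 UMIs (unique molecular identifiers, which count captured RNA molecules) over all cells left 48 of them. Members were thus chosen by their name and their summed UMI count, and these counts are given as a description. The 48 comprised 7 linker genes (H1f0 to H1f5 and H1f10) and 41 core genes, of which 10 code for H2A (1 of them, H2ac5-ps, named as a pseudogene), 13 for H2B, 9 for H3 and 9 for H4. Just inside the minimum lay H4c1 with 10 UMIs and H4c2 with 12 UMIs. Just outside lay H4c6 and H3c10 with 9 UMIs each and H2ac12 with 8 UMIs. Of the 15 genes left out, 8 had 1 to 9 UMIs and 7 had 0. Levels are given as CPM, counts per 1000000, that is, the UMIs of a gene scaled to 1000000 RNA UMIs of the same cells. They are not scaled by transcript length, so they are compared between samples and not between genes.

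Each group was a single female B6 chimera of 14 weeks, taken 6 weeks after transplant, and no mice were pooled. All recipients got 30% marrow carrying the OT2 or OT1 T cell receptor transgenes and the CD45.1.2 marker, together with 70% wild-type CD45.1 competitor marrow. The NegSelected hosts were a transgenic C57BL/6 line with the RIPmOVA transgene, which expresses a membrane form of ovalbumin, the antigen that both receptors recognise, under the rat insulin promoter (Ins2 in the strain name). The PosSelected hosts were wild-type C57BL6/Ncr mice. The NoSelection hosts lacked MHC class II (MHCII KO) for OT2, although a comment in the labels of that mouse names a b2m KO, and lacked beta-2 microglobulin (b2m KO) for OT1. Both NoSelection hosts are labelled B6.Ly5.1/Ncr, so the strain name differs between the hosts along with the selection condition. Thymocytes were dissociated mechanically and sorted as CD44lo CD45.1.2+ Va2+ Vb5+, so the competitor's and the host's own thymocytes were largely gated out. RNA and 180 antibody tags were read from all 6 mice in 1 droplet lane, with the mice told apart by hashtags. With 1 mouse for each receptor and host, a difference between 2 single mice has no replicate check.

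Core histones build the octamer around which DNA is wrapped, and H1 linker histones bind where the DNA enters and leaves it. Most core genes and H1f1 to H1f5 lie in gene clusters, are transcribed chiefly in S phase under the coactivator NPAT, and give mRNAs that end in a stem-loop bound by SLBP instead of a poly(A) tail. H1f0 and H1f10 lie outside the clusters and give polyadenylated mRNAs, and H1f0 is known for rising when cells stop dividing. In the thymus, precursors divide around the passage through beta selection, whereas most CD4+CD8+ cells and the mature cells that follow are resting. The droplet chemistry primes reverse transcription on poly(A), so replication-dependent histone mRNAs are captured only in part, and the effect of this on the levels was not tested.

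The members' promoters followed this division only in part. The 250 bases before the start were read from RefSeq promoters of build GRCm38.p6 for 42 of the 48 members, which gave 43 entries because H2bc6 has 2. H2ac5-ps, H2bc4, H2bc21, H3c1, H3c7 and H4c14 had no entry. Printed here are the linker genes with the strongest link to the cell cycle (H1f5), with the highest share of UMIs outside it among the clustered linker genes (H1f2), and outside the clusters (H1f0 and H1f10). H2ac8, the core H2A gene with the most UMIs of its class, is shown with the short stretch it shares with H2bc8. Capitals mark 4 motifs searched on both strands, which are the TATA box TATAAA (on the other strand it reads TTTATA), the CCAAT box (reading ATTGG on the other strand), the H1 box AAACACA (likewise read as TGTGTTT) and the octamer ATTTGCAT (read from the other strand as ATGCAAAT). The regions are chr13:21780626-21780875 on the minus strand for H1f5, chr13:23738557-23738806 on the plus strand for H1f2, chr15:79027962-79028211 on the plus strand for H1f0, chr6:87981483-87981732 on the minus strand for H1f10 and chr13:23571221-23571399 on the minus strand for H2ac8, each written 5′ to 3′.
H1f5: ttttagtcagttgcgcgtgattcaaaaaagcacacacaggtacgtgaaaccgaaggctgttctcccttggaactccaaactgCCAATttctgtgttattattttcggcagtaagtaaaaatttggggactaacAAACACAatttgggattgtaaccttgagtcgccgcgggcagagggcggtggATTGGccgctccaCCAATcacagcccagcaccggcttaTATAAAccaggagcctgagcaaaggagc
H1f2: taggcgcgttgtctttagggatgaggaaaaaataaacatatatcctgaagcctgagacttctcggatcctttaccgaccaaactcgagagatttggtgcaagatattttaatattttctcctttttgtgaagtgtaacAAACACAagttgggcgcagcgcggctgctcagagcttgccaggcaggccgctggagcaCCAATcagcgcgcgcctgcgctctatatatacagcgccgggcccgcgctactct
H1f0: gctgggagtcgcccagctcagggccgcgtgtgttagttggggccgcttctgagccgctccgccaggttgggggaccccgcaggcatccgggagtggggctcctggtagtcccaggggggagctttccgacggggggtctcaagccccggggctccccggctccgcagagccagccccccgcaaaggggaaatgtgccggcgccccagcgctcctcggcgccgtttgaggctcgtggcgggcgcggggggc
H1f10: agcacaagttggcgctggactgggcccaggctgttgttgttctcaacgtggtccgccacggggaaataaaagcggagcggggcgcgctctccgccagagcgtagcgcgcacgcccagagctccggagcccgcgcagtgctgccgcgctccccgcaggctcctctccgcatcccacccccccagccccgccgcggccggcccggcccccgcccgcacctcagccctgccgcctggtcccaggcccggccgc
H2ac8: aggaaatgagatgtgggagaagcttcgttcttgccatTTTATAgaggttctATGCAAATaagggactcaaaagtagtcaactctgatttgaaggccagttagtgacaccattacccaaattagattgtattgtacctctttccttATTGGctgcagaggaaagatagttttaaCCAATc

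The H1 box stood in 4 of the 5 promoters of H1f1 to H1f5 and in 6 of the 43 entries, against 6.25% of all 32851 promoters of the same length. The octamer, found before many H2A and H2B genes, stood in 4 of 9 H2A and 6 of 12 H2B entries and in none of the linker, H3 or H4 entries, against 1.6% of all promoters. CCAAT stood in 36 of the 43 entries, which included each of the entries of H1f1 to H1f5 (5), H2A (9), H2B (12) and H3 (7) but 3 of the 8 of H4, against 33.8% of all promoters. TATAAA stood in 20 of the 43 entries and in 12.4% of all promoters. None of the 4 motifs contains another, though their ends can share bases, and a match is a description of the letters in the window. None of the 4 was found before H1f0 or H1f10, nor before the clustered core genes H4c2, H4c8 and H4c11. The G and C content was 74.4% for H1f0 and 75.2% for H1f10, against 48.4% for H1f5, 50.4% for H1f2 and 38.5% for the shared stretch of H2ac8. The median was 42.8% over the 41 entries of the other members and 52.4% over all promoters.

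Of the 48 members, 40 lie in the cluster on chromosome 13 (21715711 to 23764412, mm10), among them H1f1 to H1f5, and 6 core genes lie on chromosome 3 (96219885 to 96270192). H1f0 lies at chr15:79028212-79030504 and H1f10 at chr6:87980421-87981482. The chromosome 13 members held 12007 of the 13307 member UMIs, those on chromosome 3 held 980, H1f0 held 264 and H1f10 held 56. By class, H1 had 7212 UMIs, H2A 2054, H4 1815, H2B 1239 and H3 987. Members with 50 or more UMIs numbered 35, and 13 had 10 to 49. Core genes of a class are near-identical in their coding sequence, and how the authors' counting split or dropped reads shared by copies is not given in the sources used here, so the level of a single core gene is uncertain where copies exist. The same holds for strand, and some H2A and H2B genes lie head to head with starts as close as 164 bases (H2ac15 and H2bc15).

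The files held 1331 cells with 6926058 RNA UMIs, between 525843 and 1867488 per mouse, and no cell barcode was shared between mice. The median cell had 2893 UMIs in OT2 mice and 5134.5 UMIs in OT1 mice. The 6 T cell markers summed to 3535 to 6167 CPM in every mouse, while 4 B cell markers summed to 9.93 to 36.1 CPM, 5 myeloid markers to 2.35 to 93.2 CPM (highest in the OT2 NoSelection mouse) and 5 thymic epithelial markers to 3.73 to 36.1 CPM with Krt5, Foxn1 and Psmb11 at 0. Erythroid markers had 3 UMIs in all, with Hba-a2 and Hbb-bs at 0. Gates were set on the CD4 and CD8A antibody counts, not on RNA. They held 203 CD4-CD8+ cells, 331 CD4+CD8- cells, 250 CD4+CD8+ cells and 547 CD4-CD8- cells. Markers of gamma delta T cells (Sox13, Trdc, Trgc1, Maf) summed to 216 CPM in the CD4+CD8+ gate and to 1855 CPM in the CD4-CD8- gate.

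Histone UMIs were concentrated in few cells. A cell was called cycling where 30 S phase and 30 G2 and M phase genes, with no histone gene among them, gave at least 40 of 10000 of its RNA UMIs and at least 5 of these genes were seen. This took 106 cells (7.96% of cells), which held 22.8% of all RNA UMIs and 80.4% of the members' UMIs (10701 of 13307). For comparison, the median share in cycling cells was 20.7% over the 11950 genes with 10 or more UMIs, and 215 of these genes (1.80%) had over 80%. Of the 48 members, 30 had over 80% and 18 over 90%, and the members' median was 83.8%. Only 23 cells held 50% of the member UMIs and 76 cells held 80%, whereas 334 cells (25.1%) had none. The median was 22.0 member UMIs of 10000 in cycling cells and 3.63 of 10000 in the others. The ranges overlapped, since cycling cells ran from 0.528 to 410 of 10000 and 24 other cells reached 20 of 10000, which 54 of the 106 cycling cells did. Cycling cells were also deeper, with a median of 13763.5 UMIs against 3849 UMIs in the others, and 59 of the 67 cells above the 95th percentile of UMIs were cycling; no doublet caller was run, and their part in the levels was not tested.

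**Figure D1:**
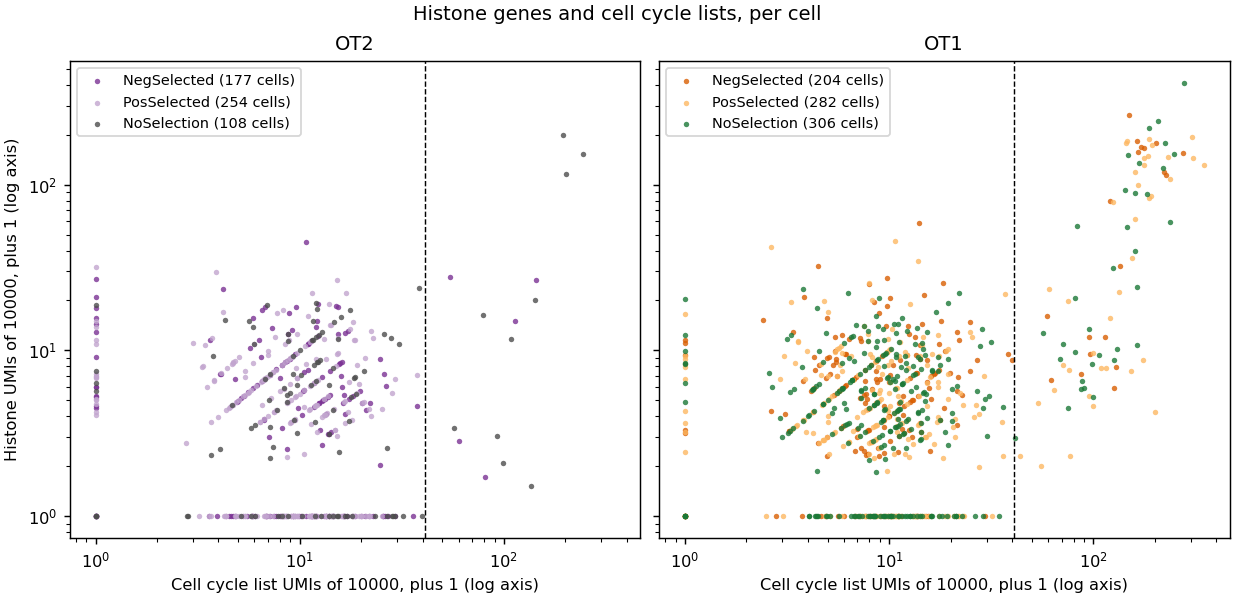
Each point is 1 cell, with OT2 mice in the left panel and OT1 mice in the right; the horizontal axis gives UMIs of the 60 cycle genes and the vertical axis UMIs of the 48 histone members, both per 10000 RNA UMIs plus 1 on log axes, and the dashed line marks the minimum of 40 for a cycling cell. Cells high in histone UMIs lie mostly right of the line, where OT2 has few points and OT1 many.

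Cells in cycle were unevenly spread over the mice. They made up 5 of 177 cells (2.82%) in the OT2 NegSelected mouse, 0 of 254 in the OT2 PosSelected mouse, which allows a share of up to 1.18% at a limit of 3 counts (exact 95% upper bound 1.44%), and 10 of 108 (9.26%) in the OT2 NoSelection mouse. They made up 19 of 204 (9.31%) in the OT1 NegSelected mouse, 38 of 282 (13.5%) in the OT1 PosSelected mouse and 34 of 306 (11.1%) in the OT1 NoSelection mouse. By gate they made up 37 of 203 CD4-CD8+ cells (18.2%), 1 of 331 CD4+CD8- cells (0.302%), 13 of 250 CD4+CD8+ cells (5.2%), each of them from an OT1 mouse, and 55 of 547 CD4-CD8- cells (10.1%). Thinned to 1500 UMIs per cell, which left out 71 shallower cells, 1 of 240 cells of the OT2 PosSelected mouse was cycling (0.417%). The thinned share was 4.49% in the NegSelected and 12.4% in the NoSelection OT2 mouse. In OT1 mice it was 9.55% in the NegSelected, 15.9% in the PosSelected and 11.7% in the NoSelection mouse. The OT2 NoSelection mouse was then above the NegSelected and NoSelection OT1 mice. With the minimum at 20 of 10000 in place of 40, cycling cells numbered 12 in the NegSelected, 8 in the PosSelected and 15 in the NoSelection OT2 mouse, and 30 in the NegSelected, 51 in the PosSelected and 48 in the NoSelection OT1 mouse. At 80 of 10000 they numbered 2, 0 and 8 in these OT2 mice and 17, 29 and 29 in these OT1 mice.

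Both the clustered linker genes and the core genes were far higher in cycling cells than in the other cells of the same mice. Sums per mouse and state were compared in the 5 mice with at least 5 cycling cells, with the OT2 PosSelected mouse giving other cells alone, by edgeR's quasi-likelihood test with the mouse as a block and Benjamini-Hochberg adjustment over 9325 genes. Of these genes 38.2% were called at 0.05, 19.7% higher and 18.6% lower. Of the 42 members tested, 41 were called higher and 0 lower. The other 6 members, H2bc21 among them, did not pass the filter on low counts. With cells thinned to 1500 UMIs, 17 of the 18 members tested were called higher. The median log2 fold change was 3.88 for H1f1 to H1f5 (5 of 5 higher), 4.24 for the core genes (35 of 35 tested higher) and −0.05 for all genes tested. Pooled over mice, H1f1 to H1f5 summed to 3569 CPM in cycling cells and 234 CPM in the other cells. H2A summed to 1175 CPM in cycling and 36.8 CPM in other cells, and H2B to 666 CPM in cycling and 35.0 CPM in other cells. H3 summed to 521 CPM in cycling and 30.7 CPM in other cells, and H4 to 782 CPM in cycling and 108 CPM in other cells, so the ratio was smallest for H4.

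The 5 clustered linker genes differed in how far they were confined to cycling cells, from H1f5 at one end to H1f2 at the other. H1f5 had 236 CPM in the NegSelected and 1177 in the NoSelection OT2 mouse, and 1242 in the NegSelected, 1196 in the PosSelected and 1219 in the NoSelection OT1 mouse in cycling cells. In the other cells of these mice and of the OT2 PosSelected mouse it stayed between 5.22 and 13.7 CPM, so the states did not overlap in any mouse. The log2 fold change was 6.95 (SE 0.25), and 97.3% of its 1923 UMIs came from cycling cells. H1f1 had 94.4 CPM in the NegSelected and 336 in the NoSelection OT2 mouse, and 423 in the NegSelected, 502 in the PosSelected and 609.6 in the NoSelection OT1 mouse in cycling cells. Its pooled level in the other cells was 9.17 CPM, its log2 fold change was 5.57 (SE 0.25) and 94.1% of its UMIs lay in cycling cells. Each mouse with cycling cells had H1f1 above that pooled level.

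H1f3 had 47.2 CPM in the NegSelected and 301 in the NoSelection OT2 mouse, and 912 in the NegSelected, 519 in the PosSelected and 606 in the NoSelection OT1 mouse in cycling cells, against 25.6 CPM in the NegSelected, 28.6 in the PosSelected and 36.5 in the NoSelection OT2 mouse, and 35.5 in the NegSelected, 42.4 in the PosSelected and 36.3 in the NoSelection OT1 mouse in the other cells. The states did not overlap, but the 47.2 CPM of the OT2 NegSelected mouse rests on very few UMIs, since a single UMI there is 23.6 CPM. The OT1 NegSelected mouse was highest (log2 fold change 3.88, SE 0.23). A single cycling cell held 91 of the 300 H1f3 UMIs of that mouse, and without it the mouse had 634 CPM in cycling cells. H1f4 had 236 CPM in the NegSelected and 848 in the NoSelection OT2 mouse, and 884 in the NegSelected, 946 in the PosSelected and 867 in the NoSelection OT1 mouse in cycling cells, against 80.4 CPM in the NegSelected, 80.7 in the PosSelected and 120.1 in the NoSelection OT2 mouse, and 113 in the NegSelected, 97.4 in the PosSelected and 91.8 in the NoSelection OT1 mouse in the other cells (log2 fold change 2.99, SE 0.19). H1f2 had 23.6 CPM in the NegSelected and 385 in the NoSelection OT2 mouse, and 564 in the NegSelected, 400 in the PosSelected and 401 in the NoSelection OT1 mouse in cycling cells, against 78.6 CPM in the NegSelected, 85.7 in the PosSelected and 73.1 in the NoSelection OT2 mouse, and 118 in the NegSelected, 73.01 in the PosSelected and 74.8 in the NoSelection OT1 mouse in the other cells (log2 fold change 2.26, SE 0.20). For H1f4 the states did not overlap. H1f2 was higher in cycling cells in 4 of the 5 mice with both states, and in the OT2 NegSelected mouse, with 5 cycling cells, its 23.6 CPM is a single UMI. The share of UMIs found in cycling cells was 83.1% for H1f3, 73.03% for H1f4 and 59.5% for H1f2, so H1f2 and H1f4 kept the most UMIs outside the cycle, 450 and 514.

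**Figure D2:**
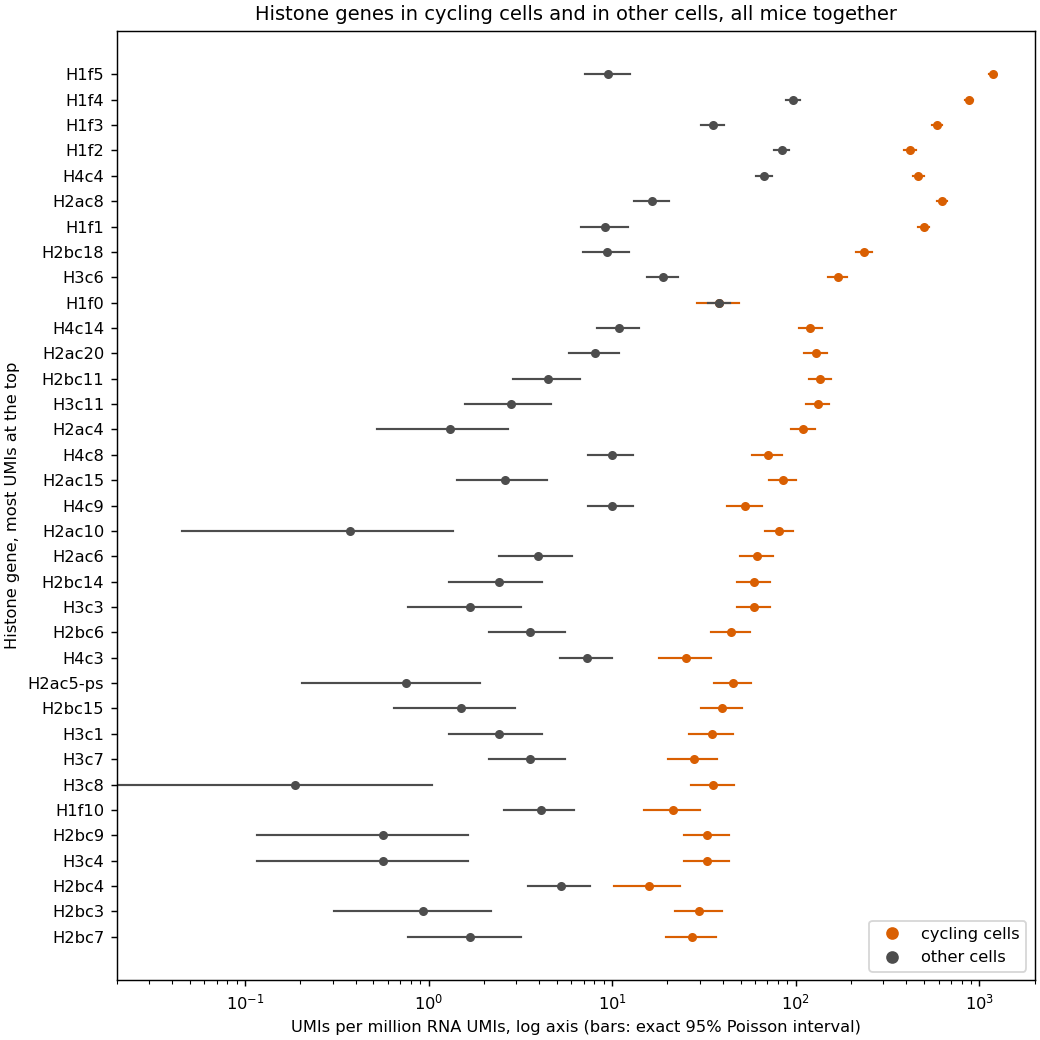
CPM of the 35 members with 50 or more UMIs, pooled over mice, in cycling cells (orange) and in the other cells (grey) on a log axis; bars are exact 95% Poisson intervals, which cover counting error only. The 2 colours lie far apart for H1f5 (1185 and 9.54 CPM) and together for H1f0 (38.0 and 38.2 CPM).

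H1f0 was the exception among the linker genes. It had 23.6 CPM in the NegSelected and 7.004 in the NoSelection OT2 mouse, and 79.1 in the NegSelected, 32.3 in the PosSelected and 30.97 in the NoSelection OT1 mouse in cycling cells, against 73.1 CPM in the NegSelected, 37.3 in the PosSelected and 33.9 in the NoSelection OT2 mouse, and 54.8 in the NegSelected, 21.98 in the PosSelected and 28.9 in the NoSelection OT1 mouse in the other cells. The states overlapped, and the pooled levels were 38.0 CPM in cycling and 38.2 CPM in other cells. Its log2 fold change was 0.19 (SE 0.27) and it was not called (adjusted p = 0.62, edgeR quasi-likelihood test, Benjamini-Hochberg). Only 22.7% of its UMIs lay in cycling cells, close to the 22.8% of all RNA found there. H1f10, the other linker gene outside the clusters, had 56 UMIs in 20 cells, of which a single UMI came from an OT2 mouse. It was called higher, with 21.5 CPM in cycling cells and 4.12 CPM in the other cells (log2 fold change 2.08, SE 0.54). The call was lost in 1 of 12 alternatives, with a mouse left out (adjusted p = 0.056 by edgeR). In cycling cells lay 60.7% of its UMIs.

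Among core genes, H2ac8 (H2A) had 70.8 CPM in the NegSelected and 686 in the NoSelection OT2 mouse, and 564 in the NegSelected, 667 in the PosSelected and 644 in the NoSelection OT1 mouse in cycling cells. It had 18.3 CPM in the NegSelected, 12.4 in the PosSelected and 41.8 in the NoSelection OT2 mouse, and 15.2 in the NegSelected, 10.99 in the PosSelected and 17.03 in the NoSelection OT1 mouse in the other cells. The states did not overlap in any mouse, and the log2 fold change was 5.01 (SE 0.25). The OT2 NegSelected mouse had 5 cycling cells and 13 H2ac8 UMIs over all its cells, so its 70.8 CPM rests on few UMIs. H2ac10, another H2A gene, had 81.01 CPM in cycling cells and 0.374 CPM in the other cells, with 2 UMIs outside the cycle and the highest log2 fold change of the members, 7.49 (SE 0.51). H2bc18, the H2B gene with the most UMIs, had 236 CPM in cycling cells and 9.35 CPM in the other cells (log2 fold change 4.56, SE 0.22), and H3c6, likewise for H3, had 169.6 CPM in cycling cells and 18.9 CPM in the other cells (log2 fold change 3.11, SE 0.22).

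Most core genes had some UMIs outside the cycle, and some kept a larger share there. In cycling cells lay 67.2% of the UMIs of H4c4, 67.7% of those of H4c8 and 69.8% of those of H3c7. H4c4, the H4 gene with the most UMIs, had 23.6 CPM in the NegSelected and 567 in the NoSelection OT2 mouse, and 529.9 in the NegSelected, 502 in the PosSelected and 397 in the NoSelection OT1 mouse in cycling cells. It had 58.5 CPM in the NegSelected, 74.5 in the PosSelected and 73.1 in the NoSelection OT2 mouse, and 62.9 in the NegSelected, 55.7 in the PosSelected and 79.2 in the NoSelection OT1 mouse in the other cells. It was higher in cycling cells in 4 of the 5 mice with both states, and in the OT2 NegSelected mouse its 23.6 CPM is again a single UMI (log2 fold change 2.74, SE 0.21). H4c3 had 25.3 CPM in cycling cells and 7.30 CPM in the other cells (50.6% of UMIs in cycling cells; log2 fold change 2.01, SE 0.48), H4c9 had 53.2 CPM in cycling cells and 9.91 CPM in the other cells, and H2bc4 had 15.8 CPM in cycling cells and 5.24 CPM in the other cells (47.2%; log2 fold change 1.73, SE 0.56). H2bc21, which was not tested, had 28 UMIs, of which 7 lay in cycling cells. Its level was 4.43 CPM in cycling cells and 3.93 CPM in the other cells. H2bc4, H4c3 and H4c9 had the smallest fold changes of the 35 core genes called.

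Genes that work with these histones were counted from 3 lists. Of 12 histone variants, 9 were tested and 5 were higher in cycling cells with 0 lower, at a median log2 fold change of 0.43. H2ax, a variant phosphorylated at DNA breaks, had 575 CPM in cycling cells and 58.7 CPM in the other cells (log2 fold change 3.17). H2az1, which marks promoters, had 2828 CPM in cycling and 414 CPM in other cells (2.53), and Cenpa, the centromeric H3, had a log2 fold change of 3.28. The replacement H3.3 genes H3f3a (0.29) and H3f3b (0.18) were not called. Of 15 genes of histone mRNA processing and its control, 13 were tested and 9 were higher with 0 lower. Slbp, whose protein binds the stem-loop, had 418 CPM in cycling and 60.04 CPM in other cells (2.73), E2f1 had 3.97 and Npat 0.92. Of 22 chaperones and deposition factors, 21 were tested and 16 were higher with 0 lower, led by Asf1b (4.42) and Chaf1a, the large subunit of chromatin assembly factor 1 (4.14).

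Cycling cells were divided into S-leaning and G2M-leaning cells by the relative share of the 2 gene lists, which left 4 mice, 3 of them with both phases. The edgeR quasi-likelihood test with Benjamini-Hochberg adjustment called 4% of 5031 genes and 0 of the 32 members tested. At an unadjusted p under 0.05 there were 8 members by edgeR and 0 by DESeq2, which also called 0. Leaving out the OT1 PosSelected mouse gave 4 calls and leaving out the OT1 NegSelected mouse 2. The lowest adjusted p belonged to H3c4 (edgeR, 0.054; log2 fold change 2.69) and H3c11 (0.072; 0.90), both higher in S-leaning cells, while H4c14 was lower there (0.094; −0.998). Pooled over mice, the members with the most UMIs were mostly higher in G2M-leaning cells. H1f5 had 1057 CPM in S-leaning and 1376 CPM in G2M-leaning cells, and H1f4 had 825 and 965 CPM. H1f3 (518 and 690 CPM), H1f2 (342 and 534 CPM), H4c4 (393 and 575 CPM) and H2ac8 (588 and 684 CPM) had the same direction. H1f1 was higher in S-leaning cells, at 512 and 474 CPM. None of these was called. H1f0 had 21.1 CPM in S-leaning cells and 63.2 CPM in G2M-leaning cells (log2 fold change −1.50, SE 0.63, adjusted p = 0.24 by edgeR). Of the histone mRNA genes, E2f1 (2.58), Slbp (0.99) and Casp8ap2 (1.10) were called higher in S-leaning cells, and of the variants, Cenpa (−2.38) and H2ax (−1.08) were called lower.

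Between receptors, summed over all cells, histone RNA was low in 2 of the 3 OT2 mice. The members together had 502 CPM in the NegSelected, 477 in the PosSelected and 2010.1 in the NoSelection OT2 mouse, and 2264 in the NegSelected, 2484 in the PosSelected and 2172 in the NoSelection OT1 mouse. H1f1 to H1f5 had 238 CPM in the NegSelected, 216 in the PosSelected and 1009.8 in the NoSelection OT2 mouse, and 1133 in the NegSelected, 1285 in the PosSelected and 1182 in the NoSelection OT1 mouse, and the core genes had 195 CPM in the NegSelected, 224 in the PosSelected and 972 in the NoSelection OT2 mouse, and 1053 in the NegSelected, 1158 in the PosSelected and 957 in the NoSelection OT1 mouse. The OT2 NoSelection mouse lay with the OT1 mice and the other OT2 mice lay far below. Summed over cells outside the cycle, the members had 464 CPM in the NegSelected, 477 in the PosSelected and 551 in the NoSelection OT2 mouse, and 577 in the NegSelected, 438 in the PosSelected and 466 in the NoSelection OT1 mouse, and the receptors overlapped. The shares of cycling cells given above were likewise lowest in the OT2 NegSelected and PosSelected mice. Their part in the levels was not tested.

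**Figure D3:**
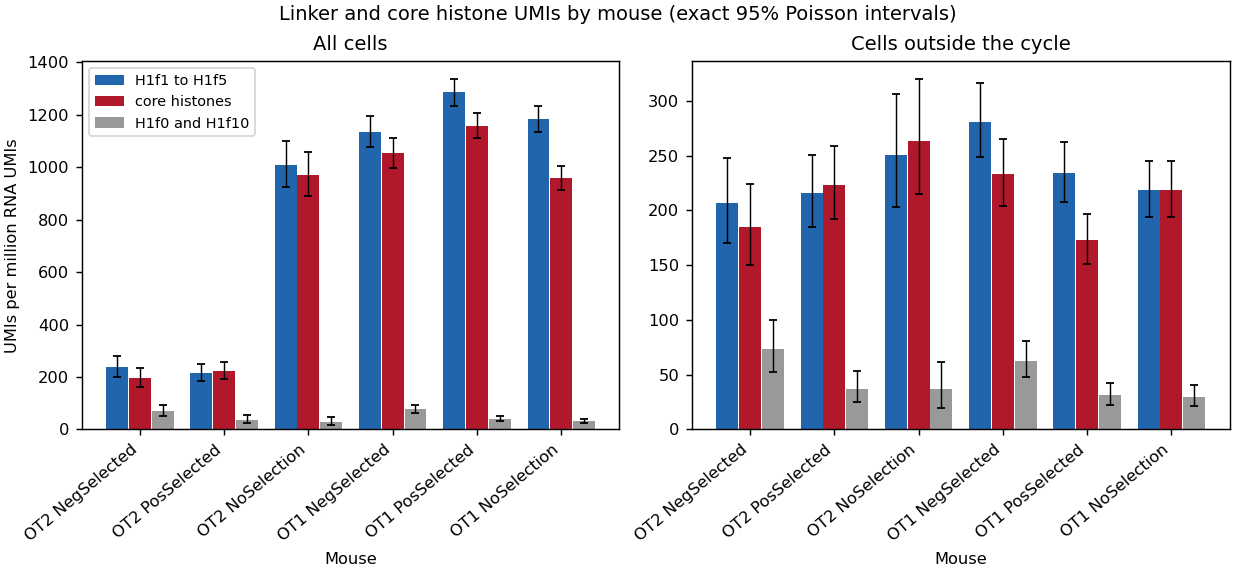
Summed CPM of H1f1 to H1f5, of the core genes and of H1f0 with H1f10 in each mouse, OT2 mice left of OT1 mice and NegSelected, PosSelected and NoSelection within each, over all cells and over cells outside the cycle; lines are exact 95% Poisson intervals. Over all cells the OT2 NegSelected and PosSelected bars of the clustered genes are lowest (238 and 216 CPM for H1f1 to H1f5), and outside the cycle the 6 mice lie between 207 and 281 CPM.

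The additive fit of host and receptor, which has 2 residual degrees of freedom, called 1.07% of 9092 genes between OT2 and OT1 (0.396% lower in OT2). Of the 33 members tested, 2 were called, both lower in OT2. H2ac15 had 1.70 CPM in the NegSelected, 2.48 in the PosSelected and 7.61 in the NoSelection OT2 mouse, and 35.2 in the NegSelected, 30.6 in the PosSelected and 20.9 in the NoSelection OT1 mouse, so every OT2 mouse was below every OT1 mouse. Its log2 fold change was −2.95 (SE 0.52) with an adjusted p of 0.041 by edgeR's quasi-likelihood test. Of its 45 UMIs in the OT1 NegSelected mouse, 20 came from 1 cell, without which that mouse had 19.7 CPM. H1f3 had 27.1 CPM in the NegSelected, 28.6 in the PosSelected and 108 in the NoSelection OT2 mouse, and 235 in the NegSelected, 193 in the PosSelected and 194 in the NoSelection OT1 mouse, again with no overlap. Without the cycling cell named above, the OT1 NegSelected mouse had 166 CPM, below the other OT1 mice and above each OT2 mouse. Its log2 fold change was −2.13 (SE 0.39) with an adjusted p of 0.047 by edgeR. The median log2 fold change was −1.58 over the members tested and 0.01 over all genes tested, and 32 of the 33 were negative. With cycling cells left out, 1.87% of 8569 genes were called and 0 of the 11 members tested (0 at an unadjusted p under 0.05 by edgeR), with a median of −0.03. Leaving out the OT1 NegSelected or the OT2 NegSelected mouse ended both calls (0 members), and leaving out the OT2 NoSelection mouse gave 26 members, the OT1 NoSelection mouse 23 and the OT2 PosSelected mouse 6. Without cycling cells H1f3 had a log2 fold change of −0.42.

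The other clustered linker genes, H1f1, H1f2, H1f4 and H1f5, were likewise lowest in the OT2 NegSelected and PosSelected mice. H1f5 had 27.1 CPM in the NegSelected, 13.7 in the PosSelected and 323 in the NoSelection OT2 mouse, and 289.8 in the NegSelected, 384 in the PosSelected and 343 in the NoSelection OT1 mouse. H1f4 had 91.6 CPM in the NegSelected, 80.7 in the PosSelected and 318 in the NoSelection OT2 mouse, and 288 in the NegSelected, 365 in the PosSelected and 306 in the NoSelection OT1 mouse. The OT2 NoSelection mouse was within the OT1 range for both, and the other 2 OT2 mice were below it. H1f2 had 74.6 CPM in the NegSelected, 85.7 in the PosSelected and 158 in the NoSelection OT2 mouse, and 219 in the NegSelected, 176 in the PosSelected and 165 in the NoSelection OT1 mouse. H1f1 had 16.96 CPM in the NegSelected, 7.45 in the PosSelected and 103 in the NoSelection OT2 mouse, and 101 in the NegSelected, 167 in the PosSelected and 174 in the NoSelection OT1 mouse. For H1f2 each OT2 mouse was below each OT1 mouse, and for H1f1 the OT2 NoSelection mouse lay just above the lowest OT1 mouse. H1f10 had 0, 0 and 1 UMIs in the NegSelected, PosSelected and NoSelection OT2 mice, against 21, 29 and 5 UMIs in the OT1 mice of the same hosts. Its log2 fold change of −4.24 (SE 1.09) was not called (adjusted p = 0.153 by edgeR).

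**Figure D4:**
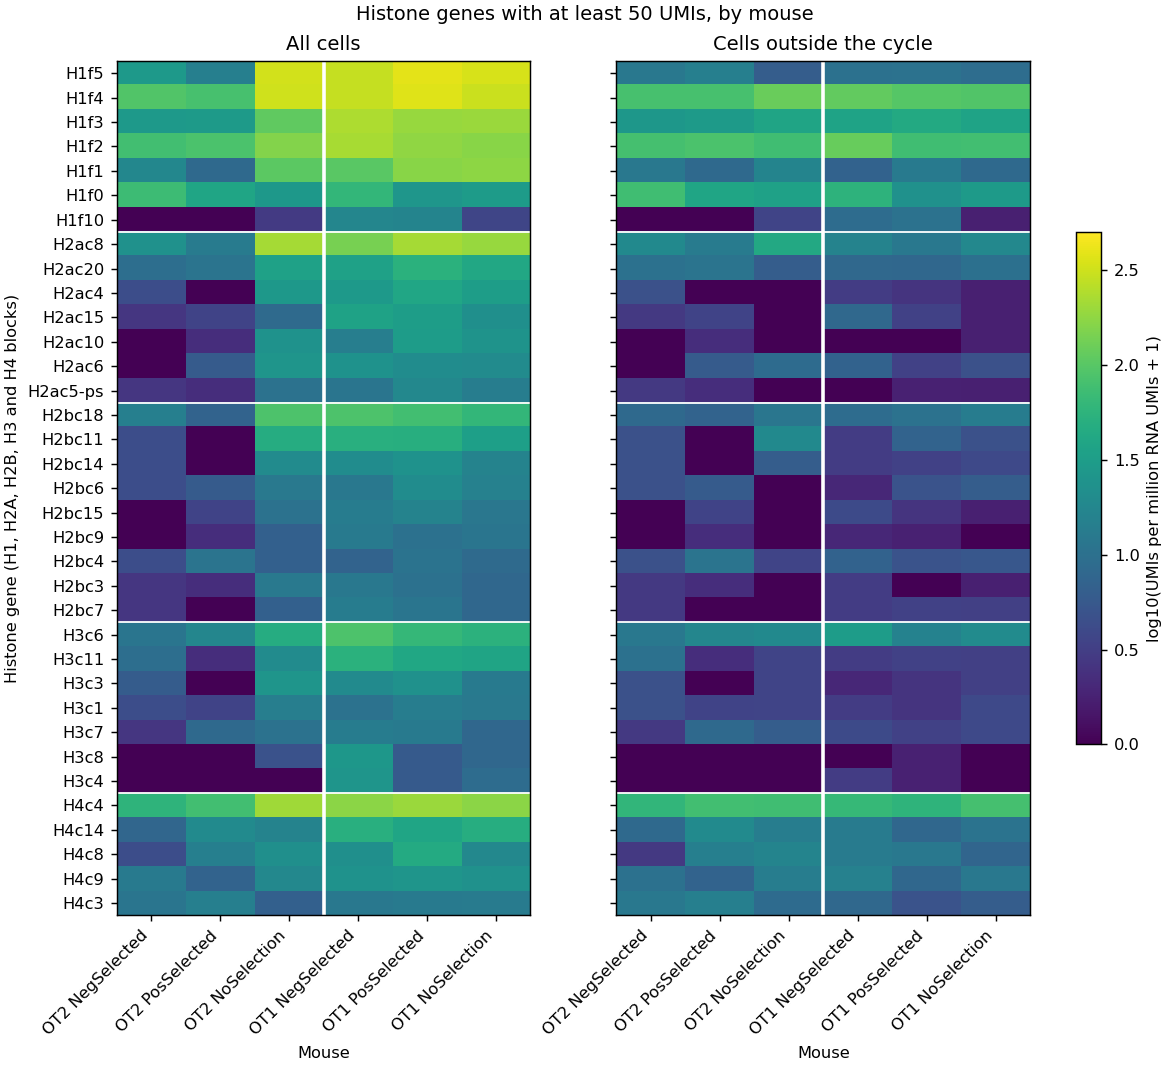
Heat maps of log10(CPM + 1) for the 35 members with 50 or more UMIs (down the page) in the 6 mice (across, OT2 before OT1), over all cells and over cells outside the cycle. Over all cells the OT2 NegSelected and PosSelected columns are darker, that is lower, for most genes. Outside the cycle the 6 columns look alike.

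Core H2A genes repeated this order. H2ac8 had 22.1 CPM in the NegSelected, 12.4 in the PosSelected and 217 in the NoSelection OT2 mouse, and 140.2 in the NegSelected, 218 in the PosSelected and 191 in the NoSelection OT1 mouse. H2ac20 had 8.48 CPM in the NegSelected, 9.93 in the PosSelected and 34.2 in the NoSelection OT2 mouse, and 34.5 in the NegSelected, 51.6 in the PosSelected and 40.2 in the NoSelection OT1 mouse. H2ac4 had 3.39 CPM in the NegSelected, 0 in the PosSelected and 26.6 in the NoSelection OT2 mouse, and 28.2 in the NegSelected, 38.1 in the PosSelected and 31.1 in the NoSelection OT1 mouse. In these genes the OT2 NegSelected and PosSelected mice were the 2 lowest. H2ac10 had 0 CPM in the NegSelected, 1.24 in the PosSelected and 22.8 in the NoSelection OT2 mouse, and 13.3 in the NegSelected, 30.1 in the PosSelected and 23.6 in the NoSelection OT1 mouse. H2ac6 had 0 CPM in the NegSelected, 4.97 in the PosSelected and 24.7 in the NoSelection OT2 mouse, and 22.7 in the NegSelected, 19.3 in the PosSelected and 19.3 in the NoSelection OT1 mouse. H2ac5-ps had 1.70 CPM in the NegSelected, 1.24 in the PosSelected and 9.51 in the NoSelection OT2 mouse, and 10.2 in the NegSelected, 17.2 in the PosSelected and 12.9 in the NoSelection OT1 mouse. The OT2 NegSelected and PosSelected mice were again the lowest 2, and H2ac6 was highest in the OT2 NoSelection mouse.

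Of the H2B genes, H2bc18 had 13.6 CPM in the NegSelected, 6.21 in the PosSelected and 87.5 in the NoSelection OT2 mouse, and 86.9 in the NegSelected, 75.8 in the PosSelected and 59.97 in the NoSelection OT1 mouse. H2bc11 had 3.39 CPM in the NegSelected, 0 in the PosSelected and 45.6 in the NoSelection OT2 mouse, and 49.3 in the NegSelected, 48.4 in the PosSelected and 32.1 in the NoSelection OT1 mouse. H2bc14 had 3.39 CPM in the NegSelected, 0 in the PosSelected and 19.02 in the NoSelection OT2 mouse, and 19.6 in the NegSelected, 22.6 in the PosSelected and 14.99 in the NoSelection OT1 mouse. The OT2 NoSelection mouse was highest for H2bc18 and within the OT1 range for H2bc11 and H2bc14. H2bc6 had 3.39 CPM in the NegSelected, 4.97 in the PosSelected and 11.4 in the NoSelection OT2 mouse, and 10.97 in the NegSelected, 19.3 in the PosSelected and 14.5 in the NoSelection OT1 mouse. H2bc15 had 0 CPM in the NegSelected, 2.48 in the PosSelected and 9.51 in the NoSelection OT2 mouse, and 12.5 in the NegSelected, 15.04 in the PosSelected and 10.7 in the NoSelection OT1 mouse. H2bc9 had 0 CPM in the NegSelected, 1.24 in the PosSelected and 5.71 in the NoSelection OT2 mouse, and 11.7 in the NegSelected, 9.13 in the PosSelected and 10.2 in the NoSelection OT1 mouse. Each OT2 mouse was below each OT1 mouse for H2bc15 and H2bc9, and the receptors overlapped for H2bc6. H2bc3 had 1.70 CPM in the NegSelected, 1.24 in the PosSelected and 11.4 in the NoSelection OT2 mouse, and 10.97 in the NegSelected, 9.13 in the PosSelected and 6.96 in the NoSelection OT1 mouse. H2bc7 had 1.70 CPM in the NegSelected, 0 in the PosSelected and 5.71 in the NoSelection OT2 mouse, and 12.5 in the NegSelected, 10.2 in the PosSelected and 6.96 in the NoSelection OT1 mouse. H2bc4 had 3.39 CPM in the NegSelected, 9.93 in the PosSelected and 5.71 in the NoSelection OT2 mouse, and 6.27 in the NegSelected, 9.67 in the PosSelected and 7.50 in the NoSelection OT1 mouse. H2bc4 alone of the 35 members had both PosSelected mice above the other 4, on 8 UMIs in the OT2 PosSelected mouse, against 4.6% of the 9154 genes with 50 or more UMIs.

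Of the H3 genes, H3c6 had 10.2 CPM in the NegSelected, 16.1 in the PosSelected and 45.6 in the NoSelection OT2 mouse, and 86.9 in the NegSelected, 61.8 in the PosSelected and 53.5 in the NoSelection OT1 mouse. H3c11 had 8.48 CPM in the NegSelected, 1.24 in the PosSelected and 19.02 in the NoSelection OT2 mouse, and 51.7 in the NegSelected, 39.2 in the PosSelected and 36.4 in the NoSelection OT1 mouse. H3c3 had 5.09 CPM in the NegSelected, 0 in the PosSelected and 24.7 in the NoSelection OT2 mouse, and 18.8 in the NegSelected, 22.03 in the PosSelected and 11.8 in the NoSelection OT1 mouse. Each OT2 mouse was below each OT1 mouse for H3c6 and H3c11, and H3c3 was highest in the OT2 NoSelection mouse. H3c1 had 3.39 CPM in the NegSelected, 2.48 in the PosSelected and 13.3 in the NoSelection OT2 mouse, and 9.40 in the NegSelected, 12.9 in the PosSelected and 11.2 in the NoSelection OT1 mouse. H3c7 had 1.70 CPM in the NegSelected, 7.45 in the PosSelected and 9.51 in the NoSelection OT2 mouse, and 12.5 in the NegSelected, 11.8 in the PosSelected and 6.96 in the NoSelection OT1 mouse. The receptors overlapped for both, and H3c1 was also highest in the OT2 NoSelection mouse. H3c8 had 0 CPM in the NegSelected, 0 in the PosSelected and 3.80 in the NoSelection OT2 mouse, and 25.8 in the NegSelected, 4.84 in the PosSelected and 6.96 in the NoSelection OT1 mouse. H3c4 had 0 CPM in the NegSelected, 0 in the PosSelected and 0 in the NoSelection OT2 mouse, and 24.3 in the NegSelected, 4.84 in the PosSelected and 8.03 in the NoSelection OT1 mouse. The OT1 NegSelected mouse stood out in both, but 1 cell gave 19 of its 33 H3c8 UMIs and 1 cell gave 13 of its 31 H3c4 UMIs, and without that cell it had 11.03 CPM of H3c8 and 14.2 CPM of H3c4.

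Of the H4 genes, H4c4 had 55.98 CPM in the NegSelected, 74.5 in the PosSelected and 207 in the NoSelection OT2 mouse, and 169 in the NegSelected, 197 in the PosSelected and 167 in the NoSelection OT1 mouse. H4c14 had 6.79 CPM in the NegSelected, 18.6 in the PosSelected and 15.2 in the NoSelection OT2 mouse, and 49.3 in the NegSelected, 37.6 in the PosSelected and 47.1 in the NoSelection OT1 mouse. H4c8 had 3.39 CPM in the NegSelected, 13.7 in the PosSelected and 20.9 in the NoSelection OT2 mouse, and 21.1 in the NegSelected, 43.5 in the PosSelected and 17.1 in the NoSelection OT1 mouse. H4c14 was lower in each OT2 mouse than in each OT1 mouse; 35 of the 81 H4c8 UMIs of the OT1 PosSelected mouse came from 1 cell. H4c9 had 11.9 CPM in the NegSelected, 6.21 in the PosSelected and 17.1 in the NoSelection OT2 mouse, and 22.7 in the NegSelected, 24.7 in the PosSelected and 21.95 in the NoSelection OT1 mouse. H4c3 had 10.2 CPM in the NegSelected, 13.7 in the PosSelected and 5.71 in the NoSelection OT2 mouse, and 10.97 in the NegSelected, 11.8 in the PosSelected and 12.3 in the NoSelection OT1 mouse. H4c9 had no overlap between receptors, and H4c3 lay between 5.71 and 13.7 CPM in all 6 mice with the receptors overlapping. Each OT2 mouse was below each OT1 mouse in 16 of the 35 members with 50 or more UMIs over all cells, against 7.8% of the 9154 genes with as many UMIs. Outside the cycle this held for 1 of the 35, against 6.34% of these genes, and 1 member had each OT2 mouse above, against 9.37%. The 13 members with 10 to 49 UMIs reached at most 9.67 CPM in any mouse (H4c12 in the OT1 PosSelected mouse).

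Between hosts, no member was called. PosSelected against NoSelection gave calls in 0.011% of 9092 genes (1 gene) and in 0 of 33 members (0 at an unadjusted p under 0.05 by edgeR; 0 called by DESeq2), with a median log2 fold change of −0.43 over the members and −0.01 over all genes. NegSelected against PosSelected gave calls in 0% of genes and 0 of 33 members (1 at an unadjusted p under 0.05 by edgeR, which was H1f0; 0 called by DESeq2). NegSelected against NoSelection gave calls in 0% of genes and 0 of 33 members (3 at an unadjusted p under 0.05 by edgeR; 0 called by DESeq2). Without the OT1 NoSelection mouse, 10 members were called for PosSelected against NoSelection and 9 for NegSelected against NoSelection, and without the OT1 PosSelected mouse 3 were called for PosSelected against NoSelection. The 3 comparisons share mice, and each rests on 2 mice a host.

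Within a receptor, the 2 hosts' mice could be set side by side with exact intervals that cover counting error alone. Core genes in the PosSelected mouse were 0.230 times (0.193 to 0.273) those in the NoSelection mouse for OT2, but 1.21 times for OT1. H1f1 to H1f5 were 0.214 times for OT2 and 1.09 times for OT1. In cells outside the cycle the core ratio was 0.848 for OT2 and 0.791 for OT1, and the ratio of H1f1 to H1f5 was 0.862 for OT2 and 1.07 for OT1. Whether the ratios differ between receptors was not tested, since each receptor had 1 mouse a host.

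H1f0 was the only one of the 35 members with both NegSelected mice above the other 4 over all cells, an order that 5.7% of the 9154 genes with 50 or more UMIs also had, so its share among the members was not above that of all genes. It had 69.6 CPM in the NegSelected, 37.3 in the PosSelected and 26.6 in the NoSelection OT2 mouse, and 60.3 in the NegSelected, 25.3 in the PosSelected and 29.5 in the NoSelection OT1 mouse. NegSelected over PosSelected was 1.87 times (1.14 to 3.10) for OT2 and 2.39 times (1.64 to 3.51) for OT1, and NegSelected over NoSelection was 2.61 times for OT2 and 2.05 times for OT1. In the additive fit the log2 fold change of NegSelected against PosSelected was 1.04 (SE 0.27). The unadjusted p was 0.0042 and the adjusted p 0.61 by edgeR's quasi-likelihood test, so the difference was not called, and without cycling cells it was 1.08 (SE 0.26, adjusted p = 0.23 by edgeR). A single cell of the OT2 PosSelected mouse, in the CD4-CD8- gate and outside the cycle, held 13 of that mouse's 30 H1f0 UMIs, and without it the mouse had 21.4 CPM. Outside the cycle H1f0 kept both NegSelected mice above the other 4, and so did H2ac4 and H2bc3, with 7 and 5 UMIs there in all, against 6.07% of the 9154 genes.

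**Figure D5:**
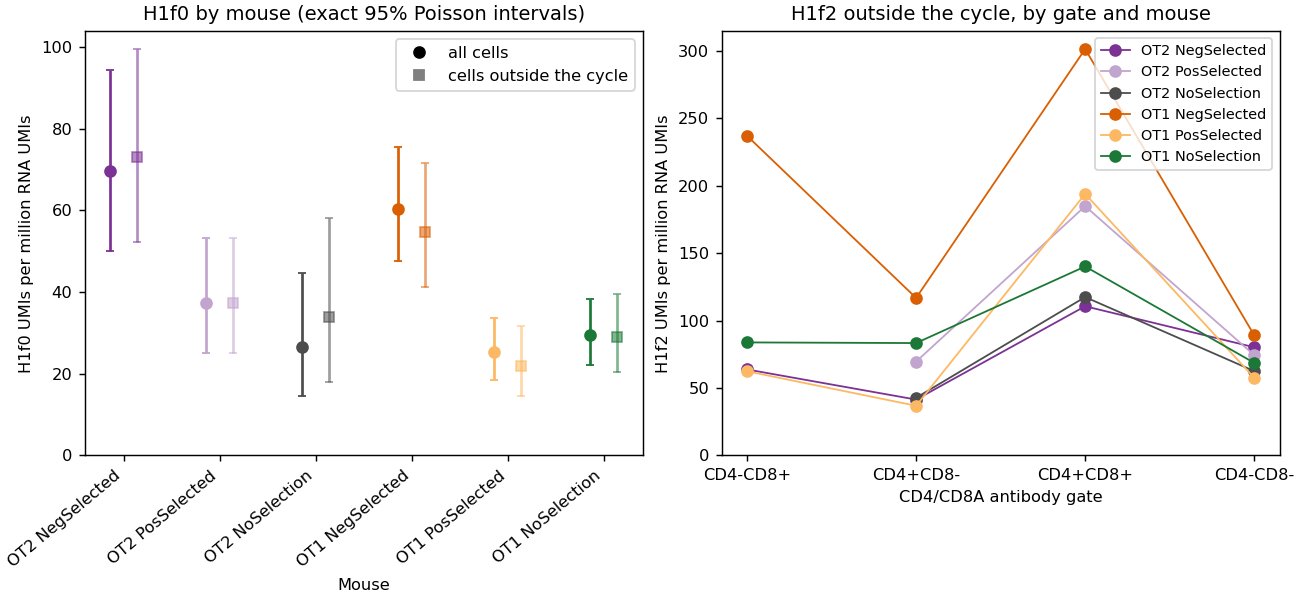
Left, H1f0 CPM in each mouse over all cells (circles) and over cells outside the cycle (squares) with exact 95% Poisson intervals; right, H1f2 CPM outside the cycle by antibody gate, with 1 line a mouse. Both NegSelected mice lie above the others for H1f0 (69.6 and 60.3 CPM over all cells), and H1f2 is highest in the CD4+CD8+ gate in each of the 6 mice, of which 4 have a point in the CD4-CD8+ gate.

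Gates were compared within mice, on sums of at least 10 cells, in a fit of gate and mouse over 4300 genes and 12 members (edgeR quasi-likelihood test, Benjamini-Hochberg). The CD4+CD8- gate stood lowest. Against CD4+CD8+ cells 11.5% of genes were called (5.12% lower), and 10 of the 12 members were called, each of them lower in the CD4+CD8- gate. H1f5 had 0 CPM in the NegSelected, 15.6 in the PosSelected and 0 in the NoSelection OT2 mouse, and 9.73 in the NegSelected, 10.1 in the PosSelected and 13.9 in the NoSelection OT1 mouse in the CD4+CD8- gate, against 30.2 CPM in the NegSelected, 21.7 in the PosSelected and 23.5 in the NoSelection OT2 mouse, and 705 in the NegSelected, 346 in the PosSelected and 2028 in the NoSelection OT1 mouse in the CD4+CD8+ gate. The gates were close in the OT2 mice and far apart in the OT1 mice, which held the cycling CD4+CD8+ cells. The log2 fold change was −4.41 (SE 0.83) for H1f5, −4.24 (SE 0.81) for H1f1 and −3.68 (SE 0.66) for H2ac8. The other 7 were H2ac20 (−3.11), H2bc18 (−2.91), H1f3 (−2.69), H1f4 (−2.46), H1f2 (−1.95), H3c6 (−1.85) and H4c4 (−1.64). With both gate thresholds 0.5 higher or lower on the log2 scale, 3 and 4 members were called.

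Against CD4-CD8- cells, 11.9% of genes were called for the CD4+CD8- gate (6.81% lower) and 4 of 12 members, each lower (H1f5 −3.65, H1f1 −3.09, H2ac8 −2.55 and H1f4 −1.69 on the log2 scale). The CD4-CD8+ gate against the CD4+CD8- gate gave 1.93% of genes (1.33% higher) and 2 members, both higher (H1f5 3.64 and H2ac8 3.12). Leaving out the OT1 PosSelected mouse gave 0 calls, and the OT1 NegSelected mouse 2, for CD4+CD8- against CD4-CD8- cells, and leaving out either gave 0 for CD4-CD8+ against CD4+CD8- cells. Gate thresholds 0.5 lower or higher on the log2 scale gave 0 calls in both comparisons. The CD4-CD8+ gate against the CD4+CD8+ gate gave 2.33% of genes and 0 members (3 at an unadjusted p under 0.05 by edgeR; 0 called by DESeq2), and against the CD4-CD8- gate 3.21% of genes and 0 members (0 at an unadjusted p under 0.05 by edgeR; 0 called by DESeq2). The CD4+CD8- gate also had the lowest share of cycling cells, and without cycling cells H1f2, between CD4+CD8- and CD4+CD8+ cells, was the only member called. The background without cycling cells was 10.6% for CD4+CD8- against CD4-CD8-, 0.404% for CD4-CD8+ against CD4+CD8-, 5.55% for CD4-CD8+ against CD4+CD8+ and 6.06% for CD4-CD8+ against CD4-CD8- cells, each with 0 of 5 members called and 1 at an unadjusted p under 0.05 by edgeR. Pooled over mice, H1f5 had 411 CPM in the CD4-CD8+ gate (18.2% cycling), 506 CPM in the CD4+CD8+ gate (5.2%) and 260.0 CPM in the CD4-CD8- gate (10.1%). H1f5 in cycling cells alone had 1112 CPM in the CD4-CD8+ gate, 2869 CPM in the CD4+CD8+ gate and 989 CPM in the CD4-CD8- gate. The CD4+CD8+ values were uneven over the mice, with 2028 CPM in the OT1 NoSelection mouse and 21.7 to 30.2 CPM in the OT2 mice over all cells.

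The CD4+CD8+ gate against the CD4-CD8- gate gave 11.7% of genes (4.72% higher) and 4 of 12 members, each higher. These were H1f2 (1.14, SE 0.27), H1f3 (1.36, SE 0.41), H2ac20 (1.45) and H4c4 (1.02) on the log2 scale. Without the OT1 NoSelection mouse 0 members were called and H1f2 had 0.71 (adjusted p = 0.083 by edgeR). Calls fell to 1 member without the OT1 NegSelected and 2 without the OT2 NegSelected mouse, and with both gate thresholds 0.5 higher on the log2 scale 0 were called. Without cycling cells, 11.4% of 3715 genes were called (4.25% higher) and 1 of the 5 members that could be tested, H1f2, the somatic linker subtype that had the smallest rise in cycling cells among H1f1 to H1f5.

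H1f2 outside the cycle had 41.4 CPM in the NegSelected, 69.5 in the PosSelected and 42.7 in the NoSelection OT2 mouse, and 117 in the NegSelected, 36.8 in the PosSelected and 83.3 in the NoSelection OT1 mouse in the CD4+CD8- gate. In the CD4+CD8+ gate it had 111 CPM in the NegSelected, 185 in the PosSelected and 117 in the NoSelection OT2 mouse, and 301 in the NegSelected, 194 in the PosSelected and 140.1 in the NoSelection OT1 mouse. In the CD4-CD8- gate it had 80.2 CPM in the NegSelected, 74.3 in the PosSelected and 62.5 in the NoSelection OT2 mouse, and 89.1 in the NegSelected, 57.5 in the PosSelected and 68.6 in the NoSelection OT1 mouse. In each of the 6 mice the CD4+CD8+ gate was above these other gates. In the CD4-CD8+ gate H1f2 had 63.7 CPM in the OT2 NegSelected mouse, and 237 CPM in the NegSelected, 62.4 CPM in the PosSelected and 83.8 CPM in the NoSelection OT1 mouse. The CD4+CD8+ gate was above it in each of these 4 mice, and the other 2 OT2 mice had under 10 CD4-CD8+ cells. For CD4+CD8+ against CD4-CD8- cells the log2 fold change without cycling cells was 1.24 (SE 0.22), with an adjusted p of 0.00029 by edgeR's quasi-likelihood test, and leaving out each mouse in turn kept it between 1.08 and 1.37. For CD4+CD8- against CD4+CD8+ cells outside the cycle, where 10.2% of genes were called (3.77% lower), it was −1.34 (SE 0.25), with an adjusted p of 0.001 by edgeR, and between −1.44 and −1.12 with each mouse left out. The counts behind these levels were 10 to 30 UMIs per mouse in the CD4+CD8+ gate and 8 to 73 in the CD4-CD8- gate. Depth differed between the gates. With cycling cells included, the median cell had 2583 RNA UMIs in the CD4+CD8+, 3223 in the CD4+CD8- and 5234 in the CD4-CD8- gate. CPM are shares of the RNA UMIs and do not give H1f2 UMIs per cell, and the part of depth was not tested. The preselection markers Rag1, Rag2, Dntt and Arpp21 moved with the gate, at 43.9 CPM in the CD4+CD8- gate, 1148 CPM in the CD4+CD8+ gate and 632 CPM in the CD4-CD8- gate over all cells, and the gamma delta T cell markers were at 102 CPM in the CD4+CD8- gate, 216 CPM in the CD4+CD8+ gate and 1855 CPM in the CD4-CD8- gate; their part in the result was not tested.

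H1f0 was not called between any 2 gates, with 29.3 CPM in the CD4-CD8+ gate, 26.3 CPM in the CD4+CD8- gate, 53.4 CPM in the CD4+CD8+ gate and 41.8 CPM in the CD4-CD8- gate over all cells. Of the variants, 4 of 8 tested were lower in the CD4+CD8- gate than in the CD4+CD8+ gate, namely H2ax (−1.83), H2az1 (−0.98), H2az2 (−0.66) and H3f3a (−0.47). Of 8 histone mRNA genes tested Slbp alone was lower (−1.34), and of 18 chaperones Anp32e was lower (−1.03) and Daxx, the H3.3 chaperone, was higher (1.06). No gene of the 3 lists was called between hosts or receptors.

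Linker genes gave between 51.7% and 61.1% of the member UMIs in the 6 mice. Over all mice they gave 54.2% (exact 95% interval 53.3 to 55.05), with 53.6% in cycling cells and 56.8% in the other cells. The share was 61.1% in the OT2 NegSelected, 53.1% in the OT2 PosSelected and 51.7% in the OT2 NoSelection mouse, and 53.5%, 53.4% and 55.9% in the NegSelected, PosSelected and NoSelection OT1 mice. The OT2 NegSelected mouse was highest, but without H1f0 and H1f10 it had 54.9% and the OT1 NoSelection mouse was highest with 55.3%. By gate the share was 51.3% in CD4-CD8+, 50.6% in CD4+CD8-, 57.5% in CD4+CD8+ and 54.8% in CD4-CD8- cells. These shares are over UMIs of poly(A)-primed libraries and were given no test.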

How the data were processed

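RNA and surface antibody tags were measured in thymocytes of 6 chimeras (18 libraries, 3 per mouse; the receptor sequencing libraries were not analysed here). The values are raw UMI counts per gene and cell and raw antibody tag counts per cell, deposited by the authors; per the labels' protocols, the chemistry was 10x Genomics 5' v2. The submitters' processing notes name Cell Ranger 8.0.1, Seurat and mm10. The filters on cells, the treatment of doublets, the handling of hashtags and the counting strand are not given in the sources used here, and no doublet caller was run. The deposited cells had 686 to 43580 RNA UMIs each.

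CPM were computed from the counts, with exact 95% Poisson intervals that cover counting error only. Gates were set where a mixture of 2 normal curves, fitted to log2(antibody counts scaled to the median cell + 1), crossed: 5.75 for CD4 and 6.24 for CD8A, with 136 and 130 cells within 0.5. Counts were summed per mouse, per mouse and gate (at least 10 cells) or per mouse and cycle state (at least 5 cells). They were tested with edgeR 4.0.16 (R 4.3.3; TMM, filterByExpr, glmQLFit and glmQLFTest, two-sided, Benjamini-Hochberg over all genes tested, threshold 0.05). SE was taken as the fold change over the root of F. Alternatives used DESeq2 1.42.0 and limma 3.58.1; Python steps used numpy 2.4.6, pandas 2.3.3, scipy 1.17.1 and scikit-learn 1.9.0. The edgeR fits of host, gate and cycle state were run on simulated counts, for a single comparison each. These counts had a fixed spread and no mouse or receptor effect. They therefore do not check the tests against the real spread between mice. Alternatives also covered size factors, the filter, cycle and gate thresholds, equal cell numbers, thinning to 1500 UMIs and leaving out each mouse.

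The members, the cycle genes and the gene lists were chosen with earlier results of these data known. Members with 50 or more UMIs are given in every mouse, H1f0 and H1f10 always, members past the threshold in gate and cycle comparisons, up to 4 genes of lowest p from each related list, and Slbp, Npat, H2az1, H3f3a and H3f3b. H2bc21 and single genes below 50 UMIs named for 1 dominant value were chosen after their values were seen. P-values rest on 1 mouse a receptor and host, so the spread in the host fit is the disagreement between receptors. A marker gene of the erythroid list is not reported here.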

Additional observations from a re-analysis of the deposited data

Results flagged for a closer look

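Over all cells, core histone genes in the OT2 PosSelected mouse were 0.230 times their level in the OT2 NoSelection mouse, whereas the same ratio was 1.21 in OT1 mice. H1f1 to H1f5 gave 0.214 for PosSelected over NoSelection in OT2 mice and 1.09 in OT1 mice. For NegSelected over NoSelection the core ratio was 0.201 in OT2 mice and 1.10 in OT1 mice. They are singled out because the 2 receptors' mice moved in opposite directions, and the difference between receptors was not tested. The share of cycling cells was 2.82%, 0% and 9.26% in the NegSelected, PosSelected and NoSelection OT2 mice. It was 9.31%, 13.5% and 11.1% in the OT1 mice of the same hosts, and its part in these ratios was not tested. Outside the cycle the core ratio of NegSelected over NoSelection was 0.700 in OT2 mice and 1.07 in OT1 mice. The genes that keep an older Hist name are not in the name pattern and held 240 UMIs, mostly from Hist1h2ap (83 of 92 UMIs in cycling cells), Hist1h2an (80 of 86) and Hist1h2al (48 of 51).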

How the results depend on the processing

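For PosSelected against NoSelection, members called were 0, 3 with no filter and 0 to 10 with a mouse left out. For NegSelected against NoSelection they were 0, 4 with no filter and 0 to 9 with a mouse left out. For NegSelected against PosSelected they were 0 under each of 15 alternatives. For OT2 against OT1 they were 2, and 1 with DESeq2, limma-voom, equal cells, no term for receptor or host, or leaving out the deepest cells (those above the 95th percentile of UMIs); 25 with no filter; 0 without cycling cells or without cells of 20 or more cycle UMIs of 10000; and 0 to 26 with a mouse left out.

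For CD4+CD8+ against CD4-CD8- they were 4, and 2 with DESeq2 or sums of at least 20 cells, 0 and 7 with gate thresholds 0.5 higher and lower, 15 with no filter, 1 without cycling cells or at the minimum of 20, 7 without the deepest cells, 0 to 6 with a mouse left out, and 1 to 2 without cycling cells and a mouse. For CD4+CD8- against CD4+CD8+ they were 10, and 3 and 4 with higher and lower thresholds, 22 with no filter, 1 without cycling cells or at 20, 7 to 13 with a mouse left out, and 1 without cycling cells and a mouse. For CD4-CD8+ against CD4+CD8+ they were 0, 4 with no filter and 0 with a mouse left out. For CD4+CD8- against CD4-CD8- they were 4, and 0 at both thresholds, 14 with no filter, 2 with sums of at least 20 cells, 0 without cycling cells, at 20 or without the deepest cells, 0 to 5 with a mouse left out, and 0 without cycling cells and a mouse. For CD4-CD8+ against CD4-CD8- they were 0, 1 with no filter, 3 without the deepest cells, and 0 to 1 without cycling cells and a mouse. For CD4-CD8+ against CD4+CD8- they were 2, and 1 with DESeq2 or at 20, 0 at both thresholds, 16 with no filter, 0 with sums of at least 20 cells, without the deepest cells or without cycling cells, 0 to 3 with a mouse left out, and 0 to 1 without cycling cells and a mouse.

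For cycling against other cells they were 41, 34 with DESeq2, 17 of 18 tested after thinning, and 37 to 42 with a mouse left out. For S-leaning against G2M-leaning cells they were 0, 6 at the minimum of 20, 1 at 80, with other size factors or without the deepest cells, 2 with no filter, and 0 to 4 with a mouse left out. The linker share became 58.9% after thinning for OT1 NoSelection. Without the deepest cells it was 49.02% for OT1 PosSelected, 55.9% for OT1 NegSelected and 57.7% for OT2 NoSelection. Without H1f0 and H1f10 it was 54.9% for OT2 NegSelected and 53.1% over all mice, and 55.5% over members of 50 or more UMIs.

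Of 825 alternatives for 60 single-gene results, 675 kept direction and side of the threshold, 143 kept direction alone and 7 changed sign, with none of the 7 values past the threshold. These were H1f0 in cycling against other cells (−0.0935 with DESeq2, −0.0651 to 0.316 with a mouse left out), and H4c4 without cycling cells and a mouse. H4c4 in CD4+CD8+ against CD4-CD8- had 0.59 to 1.31 with a mouse left out and −0.23 to 0.25 without cycling cells as well, and in CD4+CD8- against CD4+CD8+ −2.21 to −1.29 and −0.33 to 0.16. The cause of these changes was not tested. The totals mix comparisons of unlike stability. In cycling against other cells H1f5 kept its call in 13 of 13 alternatives. Gate calls ran from 21 of 21 (H1f2, CD4+CD8- against CD4+CD8+) down to 6 of 21 (H1f4, CD4+CD8- against CD4-CD8-). Between receptors H1f3 kept its call in 8 of 15 and H2ac15 in 7 of 13. H1f0 between hosts and receptors counts as kept because it stayed uncalled. The alternatives that left out the deepest cells, the minimum of 20 cycle UMIs as a filter, and cycling cells together with a mouse were chosen after seeing the data. Cycle states and gates were compared within mice, with the mouse as a block. Between receptors and between hosts, no paired analysis was possible because each group had 1 mouse, numbered 1, and the number pairs none. With 2 residual degrees of freedom between hosts and under 100 UMIs for many members, small host differences were not detectable at this depth. Large differences in 1 receptor alone could also go uncalled, because disagreement between receptors is the spread of that fit. Core genes in PosSelected over NoSelection mice were at 0.230 in OT2 and 1.21 in OT1, with 0 members called.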

Other observations

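Single cells carried much of some members. The cell with the most member UMIs, a CD4-CD8- cell of the OT1 PosSelected mouse, had 514 of them among 28161 UMIs (1.83%). In another cell, from the CD4+CD8+ gate of the OT1 NoSelection mouse, members made up 4.10% of 8892 UMIs. In the OT1 NoSelection mouse, 31 of the 68 H3c11 UMIs came from 1 cell, and in the OT1 NegSelected mouse 31 of the 63 H4c14 UMIs did.

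H2A and H2B genes that start head to head gave unequal counts. H2ac8 had 1078 UMIs and H2bc8, which starts 180 bases away, had 26. H2ac11 had 35 UMIs and H2bc11, at 249 bases, had 239. H2ac15 had 148 UMIs and H2bc15, at 164 bases, had 71, while H2bc13 and H2ac13, at 229 bases, had 23 and 20. Near-identical copies and the poly(A)-primed capture bear on these counts, and their part was not tested.

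Within cycling cells, H3 genes together had 895 CPM in the OT1 NegSelected mouse, against 470 CPM in the OT1 PosSelected and 453 CPM in the OT1 NoSelection mouse. The OT1 NegSelected mouse had 19 cycling cells. Single cycling cells held 22 of its 111 H3c6, 19 of its 33 H3c8 and 13 of its 31 H3c4 UMIs, and the difference was not tested.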
